A study of Mus musculus with 15 samples.

Results

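The expression of 10 genes of chromatin regulation, among the 55359 genes in the deposited matrix, was followed through 15 mouse RNA-seq libraries. They were chosen by gene symbol: Ezh2, Ezh1, Eed and Suz12 of Polycomb repressive complex 2 (PRC2), the DNA methyltransferases Dnmt1, Dnmt3a and Dnmt3b, their cofactor Uhrf1, the histone demethylase Kdm1a (LSD1) and its corepressor Rcor2 of the CoREST family. Each symbol matched 1 row, and all 10 genes passed the filter on low values in every comparison. The study derived lung neuroendocrine carcinoma lines from QKO mice, whose engineered alleles include floxed Rb1 and Trp53 and a null Rbl1, after Cre delivery to the airway by adenovirus, with a CMV promoter for the tumor of 46LCNEC (large cell neuroendocrine carcinoma) and a keratin K5 promoter for that of 57SCLC (small cell lung carcinoma). The 5 groups held 3 samples each. 46LCNEC_cell was the adherent line in culture, and 57SCLC_cell was the line that grows as floating aggregates, at passage 11. 46LCNEC_allo and 57SCLC_allo were subcutaneous tumors grown from these lines in syngeneic immunocompetent QKO mice, and Lung was normal lung of littermates of the hosts. Each carcinoma type was represented by 1 line, so a difference between the types is a difference between 2 lines, and the 3 cell samples of a line were separate cultures of it. The labels give no ages for the animals.

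PRC2 places methyl groups on lysine 27 of histone H3, a mark of silenced developmental genes. Ezh2 and Ezh1 are its alternative catalytic subunits, Ezh2 being characteristic of dividing cells and Ezh1 of resting tissue, while Eed reads the mark and Suz12 holds the complex together. Dnmt1 copies CpG methylation onto newly made DNA, where Uhrf1 recruits it, and Dnmt3a and Dnmt3b set methylation de novo. Kdm1a removes methyl groups from lysine 4 of histone H3 within CoREST complexes built on Rcor1, Rcor2 or Rcor3, and SNAG-domain factors such as Gfi1 and Insm1 bring it to its targets. In small cell lung carcinoma, loss of Rb1 frees E2F factors, of which Ezh2, Dnmt1 and Uhrf1 are known targets.

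Values are normalized counts, that is, reads divided by a size factor for the library. Depth ranged from 9480244 reads per library (57SCLC_allo 275) to 44876572 (57SCLC_cell C). Flask C of 57SCLC stood apart from flasks A and B, with a chi-square per degree of freedom of 144 and 127 against 2.80 between A and B, and the 46LCNEC_allo tumors differed from each other by 92.6 to 133. The tumors also carried host tissue. The summed level of 7 fibroblast markers was 25.0 to 32.2 in 57SCLC_cell and 40542 to 62734 in 57SCLC_allo, and 82234 to 92731 in 46LCNEC_cell and 432572 to 854682 in 46LCNEC_allo. That of 8 immune markers was 308 to 339 and 9119 to 18739 in 57SCLC cells and tumors and 352 to 407 and 19378 to 44454 in 46LCNEC cells and tumors. One of these markers, Itgam, was at or under 3 reads in every library, lung included. The cultured 46LCNEC cells, which hold no tissue of a graft host, were above Lung (27160 to 32386) in the fibroblast sum. Of the 7 fibroblast markers, 2 were called higher and 3 lower in 46LCNEC_cell than in Lung by the thresholds given below (20.6% and 35% of all genes). The sum therefore does not stand for each marker. In 46LCNEC the sum is not a measure of host tissue alone. In bulk RNA, fewer cells of a type and less RNA per cell cannot be told apart. Of 9 neuroendocrine markers, 9 were above 3 reads in every 57SCLC library, but only 2 were so in all 46LCNEC_cell libraries and 3 in all 46LCNEC_allo libraries. Ncam1, a neural adhesion molecule named here after its values were seen, ranged from 28614 to 31510.0 normalized counts in 46LCNEC_cell and from 3058 to 7384 in 46LCNEC_allo, against 71.0 to 79.8 in Lung, and made up most of the summed marker level of 28658 to 31533 and 3097 to 7409.8 in these groups (308 to 325 in Lung). The other 8 markers reached at most 15.5 in a 46LCNEC_cell library and 18.5 in a 46LCNEC_allo library. Gene counts cannot check the deletions, since exons were not counted separately. Rbl1, for example, stood at 2881 normalized counts in 57SCLC_cell and 830.1 in Lung. QKO mice carry the null Rbl1 without Cre, so Lung, from littermates of the hosts, may carry it too.

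Sequences upstream of the start sites are shown for 4 members, Suz12 because it holds the letters of a known E2F site and Ezh1, Dnmt3a and Dnmt3b because they separated the cell lines most. RefSeq promoters (GRCm38.p6) matched all 10 genes. The 250 bases before each start were searched on both strands for TTTCCCGC, TTTGGCGC and the looser TTTNNCGC, which contains both. Only bases that share no run of 21 letters with an annotated GENCODE transcript are printed, 5′ to 3′ on the gene's strand, with capitals for TTTNNCGC.
Suz12 (chr11:79992856-79993064, + strand): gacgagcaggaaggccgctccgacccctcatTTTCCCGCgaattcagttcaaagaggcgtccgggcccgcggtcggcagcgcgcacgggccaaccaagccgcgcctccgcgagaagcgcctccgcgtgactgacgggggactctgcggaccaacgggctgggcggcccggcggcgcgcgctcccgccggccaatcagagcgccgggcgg
Ezh1 (chr11:101226490-101226713, - strand): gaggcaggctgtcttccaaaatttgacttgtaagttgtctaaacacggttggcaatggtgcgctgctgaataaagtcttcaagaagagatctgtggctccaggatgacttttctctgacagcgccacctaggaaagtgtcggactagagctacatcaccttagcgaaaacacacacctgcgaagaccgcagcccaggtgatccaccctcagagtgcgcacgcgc
Dnmt3a (chr12:3806730-3806899, + strand): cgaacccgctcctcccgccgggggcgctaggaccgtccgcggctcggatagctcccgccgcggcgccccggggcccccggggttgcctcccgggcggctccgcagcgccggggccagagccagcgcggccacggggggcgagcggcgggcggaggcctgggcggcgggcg
Dnmt3b (chr2:153649199-153649388, + strand): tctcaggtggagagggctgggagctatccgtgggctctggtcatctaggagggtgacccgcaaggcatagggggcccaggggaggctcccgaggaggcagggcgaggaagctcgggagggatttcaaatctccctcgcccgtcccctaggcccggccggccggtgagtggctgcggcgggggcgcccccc
Suz12 held TTTCCCGC, starting 219 bases before its start site, letters found in 0.895% of 32851 promoters. TTTGGCGC, found in 0.417% of promoters, was in none of the members' windows. TTTNNCGC was in windows of 3 of the 10 genes (Suz12, Dnmt1 and Uhrf1), against 4.94% of 27025 genes. In Dnmt1 and Uhrf1 only the looser letters matched, and in Dnmt1 not before every start site. A gene with several start sites has more windows in which to match. A match describes these letters only, and no match says nothing of a factor's binding.

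Most of the 10 genes were higher in both cultured lines and in the 57SCLC tumors than in normal lung. A gene was called when the adjusted p from limma, over all genes tested, was at most 0.01 and the change was at least 2-fold. Against Lung, 4 members rose and 1 fell in 46LCNEC_allo, where 13.4% of all genes tested rose and 22.1% fell. In 57SCLC_allo 8 rose and 0 fell (18.9% and 26.9% of all genes). The cells gave 6 up and 1 down in 46LCNEC_cell (20.6% and 35% of all genes) and 8 up and 1 down in 57SCLC_cell (21.1% and 32.7%). The 4 comparisons share the Lung samples. The median change of the members was 0.87, 1.42, 1.40 and 1.68 on the log2 scale in that order, beside -0.14, -0.087, -0.23 and -0.12 over all genes tested. Between the lines, 3 members were higher and 1 lower in 57SCLC_cell than in 46LCNEC_cell (23.9% and 22.2% of all genes), and 2 were higher and 0 lower in 57SCLC_allo than in 46LCNEC_allo (16.1% and 14.2%). From cells to allografts, 2 members rose and 1 fell in 46LCNEC (14.4% and 8.45% of all genes), and 1 rose and 0 fell in 57SCLC (14.4% and 2.29%). The counts of members between the lines and between cells and allografts were therefore near those of the genome at large.

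**Figure D1:**
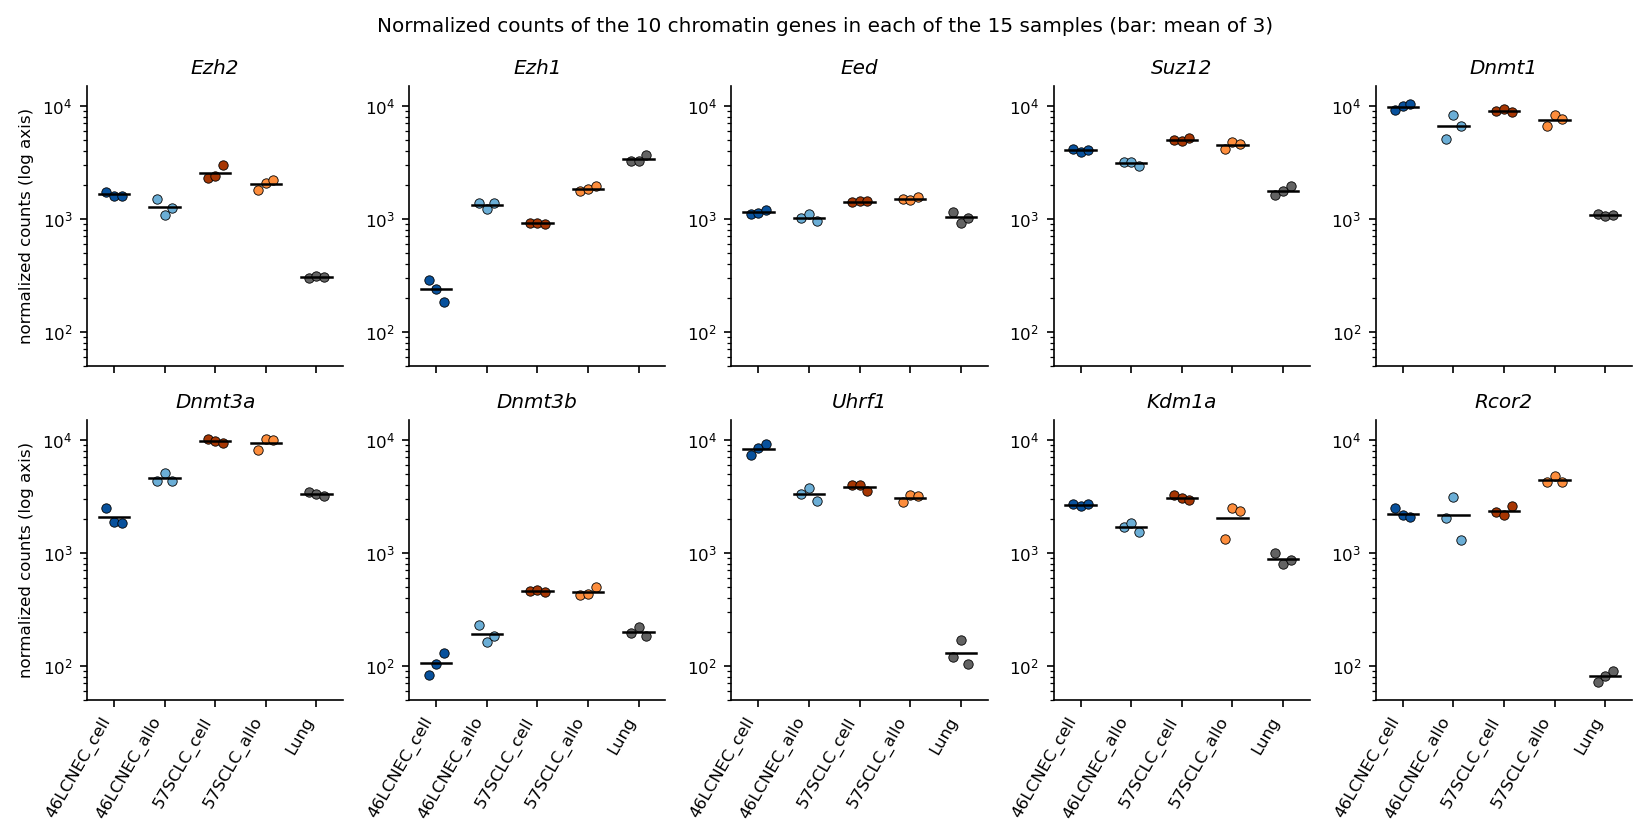
Normalized counts (log axis) of the 10 genes, 1 panel per gene, with 1 point per library and a bar at the mean of the 3 libraries of each group. Lung is lowest for Ezh2, Suz12, Dnmt1, Uhrf1, Kdm1a and Rcor2 and highest for Ezh1, while 46LCNEC_cell is lowest for Ezh1, Dnmt3a and Dnmt3b.

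The catalytic subunits of PRC2 moved in opposite directions. Ezh2 (chr6:47507073-47572331, GRCm39) was at 297, 314 and 304 normalized counts in the 3 lungs, 1744, 1607 and 1589 in 46LCNEC_cell A, B and C, 1487, 1091 and 1245 in 46LCNEC_allo 312, 319 and 321, 2309, 2387 and 2988 in 57SCLC_cell A, B and C, and 1803, 2064 and 2219.6 in 57SCLC_allo 275, 316 and 317. Every tumor library lay above every lung, and no range of one group overlapped that of its neighbour in the order 57SCLC_cell, 57SCLC_allo, 46LCNEC_cell, 46LCNEC_allo, Lung. Against Lung, Ezh2 rose in all 4 groups, from 2.05 ± 0.14 (SE), adjusted p = 5.35e-05 in 46LCNEC_allo to 3.05 ± 0.11 (SE), adjusted p = 1.41e-07 in 57SCLC_cell. It was higher in 57SCLC than in 46LCNEC by 0.63 in cells and 0.68 in allografts, adjusted p = 9.36e-04 and 0.00719, below 2-fold in both.

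Ezh1 (chr11:101081934-101117315), the other catalytic subunit, had its highest level in lung. It stood at 3225, 3244 and 3639 normalized counts in the lungs, 1759, 1842 and 1952 in 57SCLC_allo, 1371, 1215 and 1394 in 46LCNEC_allo, 927, 924 and 895 in 57SCLC_cell and 289.9, 239 and 185 in 46LCNEC_cell. These 5 ranges did not overlap. Ezh1 fell by 3.84 ± 0.15 (SE) on the log2 scale in 46LCNEC_cell against Lung (adjusted p = 2.21e-08), by 1.88 in 57SCLC_cell (2.16e-07) and by 1.34 in 46LCNEC_allo (7.06e-05), while the difference of -0.86 in 57SCLC_allo (adjusted p = 2.79e-05) did not reach 2-fold. Allografts were above cells of the same line, by 2.49 ± 0.18 (SE), adjusted p = 6.05e-05 in 46LCNEC and 1.01 ± 0.079 (SE), adjusted p = 2.27e-05 in 57SCLC. The 57SCLC value sat at the 2-fold threshold and dropped just under it, to 1.00, without 57SCLC_cell C and to 0.97 without 57SCLC_allo 317. The fibroblast and immune markers given above rose with Ezh1 from cells to allografts in both lines, and the part of host tissue in it was not tested. The exons of Ezh1 share 814 bases (8.80%) with Cntnap1 on the opposite strand, and whether counting used strand is not given in the sources used here.

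Compared per kilobase of merged exons, Ezh2 exceeded Ezh1 in every tumor group and was below it in lung. The ratio of Ezh2 to Ezh1 was 8.999 ± 1.68 (SD, n = 3) in 46LCNEC_cell, 3.55 ± 0.59 in 57SCLC_cell, 1.39 ± 0.0771 in 57SCLC_allo, 1.215 ± 0.139 in 46LCNEC_allo and 0.115 ± 0.0085 in Lung. The 2 allograft groups overlapped, and the others stood apart.

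Suz12 and Eed, the structural core of PRC2, changed less. Suz12 (chr11:79883891-79925421) was at 1617, 1767 and 1934 normalized counts in the lungs, 3205, 3198 and 2943 in 46LCNEC_allo, 4144, 3908 and 4065 in 46LCNEC_cell, 4122, 4827 and 4596 in 57SCLC_allo and 4980.4, 4929 and 5199.6 in 57SCLC_cell. All tumor libraries were above all lungs. The rise against Lung was 1.51 ± 0.083 (SE), adjusted p = 1.18e-06 in 57SCLC_cell, 1.35 in 57SCLC_allo (6.06e-06) and 1.19 in 46LCNEC_cell (7.33e-07), whereas the difference of 0.82 in 46LCNEC_allo (5.64e-04) stayed under 2-fold. Eed (chr7:89603862-89630217) was at 1156, 912 and 1019.6 in the lungs, 1013, 1099.9 and 954 in 46LCNEC_allo, 1112, 1118 and 1201 in 46LCNEC_cell, 1397, 1444 and 1425 in 57SCLC_cell and 1506, 1464 and 1572 in 57SCLC_allo. It was called in none of the 9 comparisons. Its difference from Lung was 0.56 (95% interval 0.33 to 0.80) in 57SCLC_allo and -0.01 (-0.30 to 0.29) in 46LCNEC_allo, and the lung range overlapped those of 46LCNEC_allo and 46LCNEC_cell. Eed shares 355 exon bases (9.21%) with E230029C05Rik on the opposite strand.

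**Figure D2:**
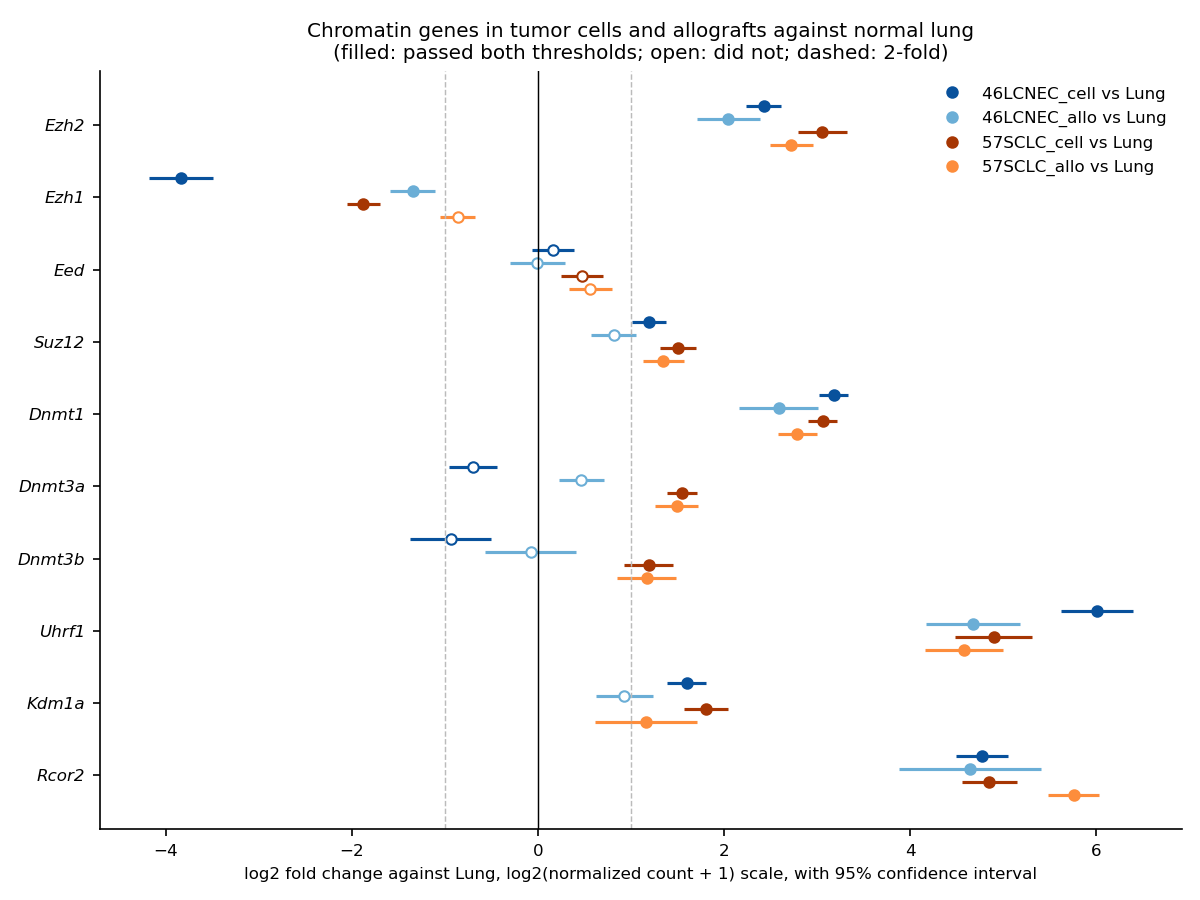
Log2 fold change of each gene against Lung with its 95% confidence interval, for 46LCNEC_cell, 46LCNEC_allo, 57SCLC_cell and 57SCLC_allo (3 samples each). Filled points passed both thresholds, and dashed lines mark a 2-fold change. Uhrf1 and Rcor2 lie farthest to the right, from 4.58 to 6.01 and from 4.64 to 5.76, and Ezh1 lies left of 0 in all 4.

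Among 11 further PRC2 partners, 9 passed the filter on low values in each comparison. The others, Ezhip and Phf1, were at or under 3 reads in every library, and whether low expression or the counting lies behind this was not tested. Against Lung, 5 rose and 0 fell in 46LCNEC_allo (13.4% and 22.1% of all genes), 5 rose and 1 fell in 57SCLC_allo (18.9% and 26.9%), 4 rose and 0 fell in 46LCNEC_cell (20.6% and 35%), and 6 rose and 1 fell in 57SCLC_cell (21.1% and 32.7%), with medians of 1.05, 1.09, 0.96 and 1.26 beside -0.14, -0.087, -0.23 and -0.12 over all genes. Mtf2, a Polycomb-like protein that brings PRC2 to CpG islands, rose in all 4, by 1.53, 1.62, 2.08 and 1.81 in the same order. Phf19, of the same family, was higher in 46LCNEC_allo (1575 ± 271, SD, n = 3) than in 46LCNEC_cell (764 ± 96.5), by 1.04 ± 0.16 (SE), adjusted p = 0.00162. Lcorl, which encodes a PRC2-associated protein, was 1782 ± 289 in 57SCLC_cell and 684 ± 39.02 in 46LCNEC_cell (1.37 ± 0.12 (SE), adjusted p = 1.66e-05). Epop, a PRC2 cofactor that binds elongin, was lower in 57SCLC_cell than in 46LCNEC_cell, at 271 ± 26.2 and 553 ± 77.5 (-1.02 ± 0.14 (SE), adjusted p = 2.08e-04). The erasers of the mark, Kdm6a and Kdm6b, were called in none of the 9 comparisons, with values against Lung from -0.27 to 0.82.

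In the sister complex PRC1, whose Cbx proteins read the PRC2 mark, some genes differed between the lines, as did many genes at large. Of 21 of 22 listed genes tested, 5 were higher and 1 lower in 57SCLC_cell than in 46LCNEC_cell (23.9% and 22.2% of all genes), and 5 higher and 2 lower in the allografts (16.1% and 14.2%), with medians of 0.84 and 0.35 beside 0.00028 and 0.015 over all genes. Cbx2 stood at 1054 ± 127 and 1020.2 ± 72.3 normalized counts in 46LCNEC cells and tumors, 5470.4 ± 1205 and 5187 ± 426 in those of 57SCLC and 324 ± 39.5 in Lung, a line difference of 2.36 ± 0.17 (SE), adjusted p = 5.31e-06 in cells and 2.34 ± 0.11 (SE), adjusted p = 1.32e-05 in allografts. Cbx7 was highest in Lung (3819.8 ± 404) and fell in 46LCNEC_cell to 725 ± 51.3 (-2.39, adjusted p = 2.68e-08) and in 46LCNEC_allo to 642 ± 131 (-2.59, 4.97e-05). Pcgf6, a subunit of a variant PRC1, was 1863 ± 248 in 57SCLC_allo and 515 ± 51.6 in 46LCNEC_allo (1.85 ± 0.14 (SE), adjusted p = 7.44e-05). Bmi1, a core PRC1 subunit, was higher in 57SCLC_cell (4205 ± 307) than in 46LCNEC_cell (1576 ± 82.2), by 1.41 ± 0.081 (SE), adjusted p = 1.31e-06.

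The maintenance and the de novo DNA methyltransferases followed different patterns. Dnmt1 (chr9:20817945-20871184) was at 1107, 1070.1 and 1083 normalized counts in the lungs, 9225, 10044 and 10351 in 46LCNEC_cell, 5105, 8319 and 6577 in 46LCNEC_allo, 9003, 9437 and 8764 in 57SCLC_cell and 6679, 8338 and 7637 in 57SCLC_allo. Every tumor library exceeded every lung, and the tumors of 46LCNEC spread widely. The rise against Lung ran from 2.59 ± 0.18 (SE), adjusted p = 5.00e-05 in 46LCNEC_allo to 3.18 ± 0.069 (SE), adjusted p = 9.27e-10 in 46LCNEC_cell. No difference between the lines passed the test, at -0.12 in cells (95% interval -0.30 to 0.06) and 0.20 in allografts (-0.26 to 0.66).

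Dnmt3a (chr12:3856007-3964443) had the largest difference between the cell lines among the 10 genes. Its values were 2487, 1878 and 1842 normalized counts in 46LCNEC_cell, 3435, 3321 and 3209.8 in the lungs, 4309, 5136 and 4369.7 in 46LCNEC_allo, 8079, 10126 and 9944 in 57SCLC_allo and 10099, 9769.7 and 9311 in 57SCLC_cell. The 57SCLC groups overlapped each other and lay above all others, and 46LCNEC_cell lay below the lungs. The line difference was 2.25 ± 0.12 (SE), adjusted p = 8.90e-07 in cells and 1.02 ± 0.13 (SE), adjusted p = 7.13e-04 in allografts. The latter lies at the 2-fold threshold and ranged from 0.97 to 0.99 when 46LCNEC_allo 312 or 321, or 57SCLC_allo 316 or 317, was left out, so the call rests on each of these 4 tumors. Against Lung, Dnmt3a rose by 1.55 in 57SCLC_cell (3.78e-07) and 1.49 in 57SCLC_allo (4.82e-06), with values of -0.70 in 46LCNEC_cell and 0.47 in 46LCNEC_allo that stayed under 2-fold. In 46LCNEC it rose from cells to allografts (1.16 ± 0.15 (SE), adjusted p = 6.35e-04), along with the fibroblast and immune markers. The part of host tissue in this was not tested.

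Dnmt3b (chr2:153490861-153529650) was the scarcest of the methyltransferase genes and also differed between the lines. It was at 83.5, 104 and 129 normalized counts in 46LCNEC_cell, 230.5, 161 and 183 in 46LCNEC_allo, 197, 219 and 185 in the lungs, 424, 429 and 504 in 57SCLC_allo and 458, 469 and 448 in 57SCLC_cell. Both 57SCLC groups lay above the others, and 46LCNEC_allo overlapped the lungs. The line difference was 2.13 ± 0.17 (SE), adjusted p = 9.57e-06 in cells and 1.25 ± 0.19 (SE), adjusted p = 0.00169 in allografts, and the latter became 1.17 with an adjusted p of 0.012 without 57SCLC_allo 317. Dnmt3b rose against Lung in 57SCLC_cell (1.19, 2.89e-05) and 57SCLC_allo (1.17, 1.13e-04). The difference of -0.94 in 46LCNEC_cell was under 2-fold with all samples and passed at -1.10 without 46LCNEC_cell C.

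Per kilobase, Dnmt1 made up 89.3 ± 1.83% (SD, n = 3) of the 3 methyltransferase genes in 46LCNEC_cell, 71.8 ± 3.9% in its allografts, 62.3 ± 0.879% in 57SCLC_cell, 58.7 ± 1.14% in those allografts and 36.0 ± 0.776% in Lung. Of the 5 groups, Lung had the highest share of Dnmt3a, at 54.9 ± 0.487%, and 46LCNEC_cell the lowest, at 9.4 ± 2.03%, with Dnmt3b at 9.1 ± 0.72% and 1.3 ± 0.233% in these groups. Dnmt3l, a cofactor of the de novo enzymes with no activity of its own, ranged from 32.6 to 172 normalized counts in 46LCNEC_allo, from 17.2 to 26.9 in Lung and from 0 to 0.938 in 46LCNEC_cell, where it was under 3 reads.

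**Figure D3:**
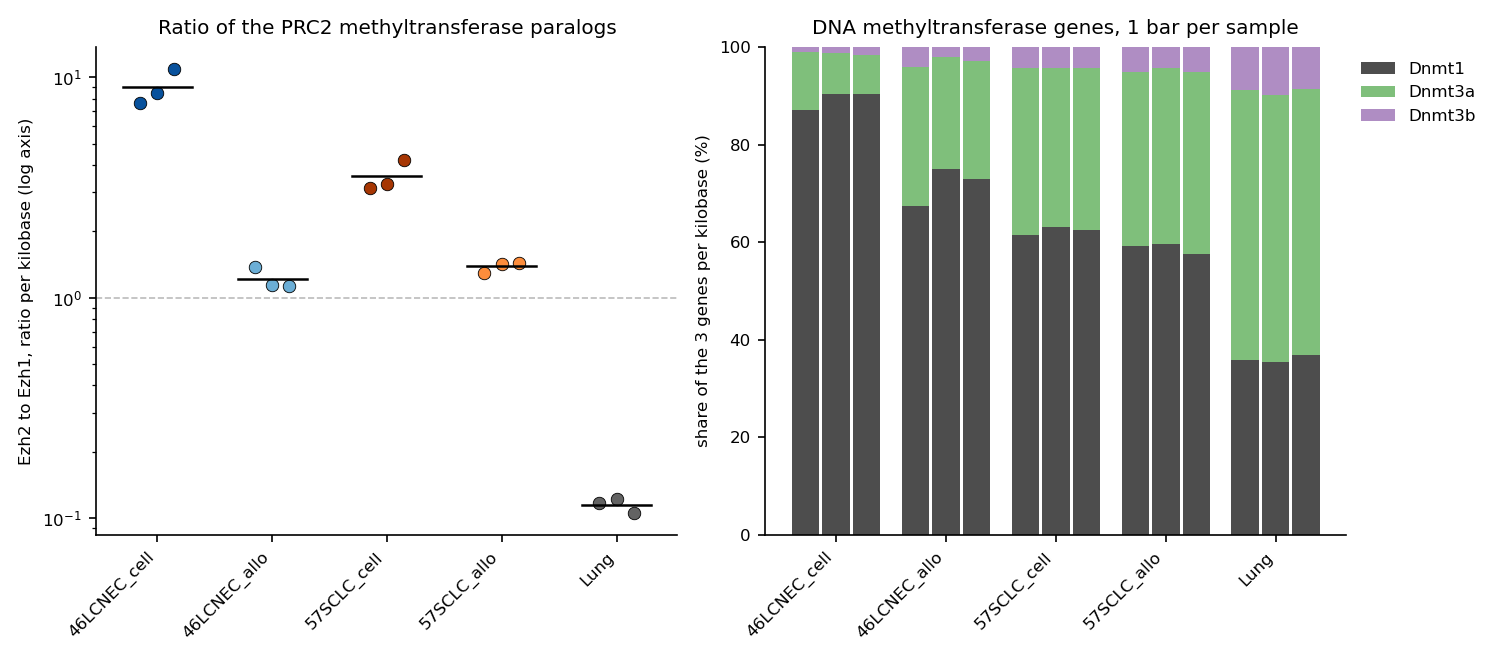
Left, ratio of Ezh2 to Ezh1 per kilobase of merged exons in each library (log axis), with a bar at the group mean and a dashed line at 1. Right, shares of Dnmt1, Dnmt3a and Dnmt3b per kilobase in each library. Lung is the only group under a ratio of 1 (0.115 ± 0.0085), and the Dnmt1 share falls from 89.3 ± 1.83% in 46LCNEC_cell to 36.0 ± 0.776% in Lung.

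Uhrf1 (chr17:56610275-56630489), which recruits Dnmt1 to hemimethylated DNA, had one of the largest rises. It was at 120.3, 169 and 103 normalized counts in the lungs, 7296, 8498 and 9169 in 46LCNEC_cell, 3335, 3739.6 and 2863 in 46LCNEC_allo, 4023, 4013 and 3519 in 57SCLC_cell and 2827, 3236 and 3197 in 57SCLC_allo. The adherent 46LCNEC cells lay above all other samples, and the ranges of the other tumor groups overlapped their neighbours. The rise against Lung was 6.01 ± 0.17 (SE), adjusted p = 3.67e-09 in 46LCNEC_cell, 4.90 in 57SCLC_cell (1.31e-07), 4.68 in 46LCNEC_allo (1.19e-05) and 4.58 in 57SCLC_allo (3.18e-07). It fell by 1.33 from 46LCNEC_cell to 46LCNEC_allo (adjusted p = 2.70e-04) and was lower in 57SCLC_cell than in 46LCNEC_cell (-1.11 ± 0.10 (SE), adjusted p = 2.48e-05). Its paralog Uhrf2, which does not replace it in maintaining methylation, was 5518 ± 42.8 normalized counts in 46LCNEC_cell, 3750.1 ± 403 in its allografts, 2128 ± 169 in Lung, 2044 ± 135 in 57SCLC_allo and 1536 ± 156 in 57SCLC_cell. Uhrf2 too was lower in 57SCLC_cell than in 46LCNEC_cell, by -1.85 ± 0.085 (SE), adjusted p = 3.61e-07.

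Of 16 other listed genes of DNA methylation, 15 were tested against Lung, of which 2 rose and 1 fell in 46LCNEC_allo (13.4% and 22.1% of all genes), 5 and 0 in 57SCLC_allo (18.9% and 26.9%), 4 and 2 in 46LCNEC_cell (20.6% and 35%), and 5 and 1 in 57SCLC_cell (21.1% and 32.7%), with medians of 0.50, 0.47, 0.29 and 0.58 in that order beside -0.14, -0.087, -0.23 and -0.12 over all genes. Hells, a chromatin remodeler needed for methylation, and its activator Cdca7 rose in all 4. Hells reached 4877 ± 880.0 normalized counts in 46LCNEC_cell against 126 ± 14.7 in Lung (5.26 ± 0.14 (SE), adjusted p = 3.08e-09), and Cdca7 reached 2035 ± 123 against 213 ± 18.9 (3.25 ± 0.10 (SE), adjusted p = 4.93e-09). Tet1, a dioxygenase that oxidizes methylcytosine, ranged from 865 to 1147 in 57SCLC_cell, from 598 to 815 in 57SCLC_allo and from 203 to 262 in Lung, but from 3.31 to 11.26 in 46LCNEC_cell and from 15.8 to 35.4 in 46LCNEC_allo. The difference between the allografts was 4.97 ± 0.35 (SE), adjusted p = 5.90e-05. Tet3 was also higher in 57SCLC, by 1.48 in cells (1.25e-05) and 1.06 in allografts (9.55e-04), whereas Tet2 was lower in 57SCLC_cell (-1.20 ± 0.17 (SE), adjusted p = 3.35e-04) and differed by -0.14 (0.61) in allografts, and the change between these, 1.06 ± 0.30 (SE), adjusted p = 0.0159, missed the threshold.

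Germline genes, many of which are silenced by promoter methylation in somatic tissue, were mostly near 0. Of 14 listed, 7 were at or under 3 reads in all 46LCNEC_cell libraries, 8 in all 46LCNEC_allo, 8 in all 57SCLC_cell, 9 in all 57SCLC_allo and 7 in all Lung libraries, and 2 to 4 passed the filter in a comparison. Tdrd1, of the piRNA pathway, ranged from 89.6 to 94.9 normalized counts in 57SCLC_cell and from 4.54 to 11.97 in 57SCLC_allo (-3.56 ± 0.35 (SE), adjusted p = 8.90e-05). Brdt, a testis bromodomain gene, was 387 ± 10.5 in 46LCNEC_allo and 57.7 ± 19.6 in 46LCNEC_cell (2.78 ± 0.28 (SE), adjusted p = 2.26e-04). Tex11, a meiosis gene, was 188 ± 8.93 in Lung and from 28.4 to 38.2 in 57SCLC_allo (-2.54 ± 0.22 (SE), adjusted p = 1.97e-05).

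Kdm1a (chr4:136277846-136330106) showed a moderate rise. It was at 1002, 793 and 863 normalized counts in the lungs, 1681, 1837 and 1537 in 46LCNEC_allo, 1321, 2497 and 2352 in 57SCLC_allo, 2719, 2610.2 and 2695 in 46LCNEC_cell and 3261, 3039.7 and 2963 in 57SCLC_cell. Every tumor library lay above every lung, and 57SCLC_allo 275, the shallowest library, was well below 316 and 317. Against Lung it rose by 1.81 ± 0.10 (SE), adjusted p = 1.27e-06 in 57SCLC_cell and 1.60 in 46LCNEC_cell (2.77e-07). The rise of 1.17 ± 0.23 (SE), adjusted p = 0.0024 in 57SCLC_allo lost its call without 57SCLC_allo 316 (1.00) or 317 (1.04) or Lung CT4 (1.09) or CT5 (1.15). The value in 46LCNEC_allo, 0.93 (adjusted p = 8.97e-04), was under 2-fold and became 1.02, a call, without Lung CT3. Kdm1a shares 631 exon bases (11.27%) with Luzp1 on the opposite strand. Kdm1b (LSD2), the second demethylase of this type, differed between the lines, at 337 ± 16.8 in 46LCNEC_cell and 1039.5 ± 41.2 in 57SCLC_cell (1.62 ± 0.087 (SE), adjusted p = 8.66e-07).

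Rcor2 (chr19:7241690-7252591), a corepressor known from stem cells and neural progenitors, was low in lung. It was at 71.8, 80.8 and 90.1 normalized counts in the lungs, 2477, 2161 and 2059.6 in 46LCNEC_cell, 2050.3, 3146 and 1314 in 46LCNEC_allo, 2314, 2154 and 2617 in 57SCLC_cell and 4215, 4813 and 4246 in 57SCLC_allo. The 57SCLC tumors lay above all other samples, and the other 3 tumor groups overlapped. The rise against Lung was 5.76 ± 0.12 (SE), adjusted p = 3.59e-08 in 57SCLC_allo, 4.85 in 57SCLC_cell (3.12e-08), 4.77 in 46LCNEC_cell (2.28e-09) and 4.64 in 46LCNEC_allo (4.97e-05). The difference of 1.11 ± 0.30 (SE), adjusted p = 0.0169 between the allografts missed the threshold and passed at 1.43 without 46LCNEC_allo 319. From 57SCLC_cell to 57SCLC_allo Rcor2 differed by 0.91 (95% interval 0.68 to 1.14, adjusted p = 1.66e-04), under 2-fold.

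Rcor2 took a larger share of the CoREST scaffold genes in the tumor groups than in Lung. Per kilobase, Rcor2 made up 5.75 ± 0.711% (SD, n = 3) of Rcor1, Rcor2 and Rcor3 in Lung, 56.3 ± 0.292% in 46LCNEC_cell, 48.7 ± 7.79% in 46LCNEC_allo, 48.2 ± 3.02% in 57SCLC_cell and 66.8 ± 1.79% in 57SCLC_allo. Rcor1 itself did not reach 2-fold against Lung in any group, with values from 0.49 to 0.98. Of 14 listed partners of the complex, 13 were tested against Lung, and 0 rose and 2 fell in 46LCNEC_allo (13.4% and 22.1% of all genes), 2 and 1 in 57SCLC_allo (18.9% and 26.9%), 0 and 4 in 46LCNEC_cell (20.6% and 35%), and 3 and 1 in 57SCLC_cell (21.1% and 32.7%), with medians of 0.03, 0.36, -0.38 and 0.66 in that order beside -0.14, -0.087, -0.23 and -0.12 over all genes. Insm1 ranged from 26639 to 39944 normalized counts in 57SCLC_cell, from 18147 to 27716 in 57SCLC_allo and from 21.1 to 26.2 in Lung, but only from 1.54 to 10.3 in 46LCNEC_cell and from 0 to 4.43 in 46LCNEC_allo. Gfi1 ranged from 1783 to 2265 in 57SCLC_cell and from 2044 to 3243 in 57SCLC_allo, against 0.769 to 6.62 in 46LCNEC_cell, 2.11 to 74.1 in 46LCNEC_allo and 38.6 to 68.8 in Lung. Gfi1b stayed at or under 23.2 in every library.

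Whether the difference between the lines was the same in culture and in tumors was tested over the 12 tumor samples, as the line difference in allografts minus that in cells. Here 1 member was higher and 2 were lower (10.8% and 6.78% of all genes tested). Ezh1 differed between the lines by 1.96 in cells and 0.48 in allografts, a change of -1.48 ± 0.20 (SE), adjusted p = 1.46e-04. For Dnmt3a the line difference was 2.25 and 1.02, a change of -1.22 ± 0.18 (SE), adjusted p = 3.56e-04. Uhrf1 went from -1.11 to -0.10, a change of 1.01 ± 0.17 (SE), adjusted p = 6.92e-04, which fell under 2-fold, to values of 0.91 to 0.99, without any one of 46LCNEC_cell B or C, 46LCNEC_allo 321, 57SCLC_cell C or 57SCLC_allo 316 or 317. Rcor2, at 1.03 ± 0.33 (SE), adjusted p = 0.0289, missed the threshold and passed at 1.35 without 46LCNEC_allo 319. The 46LCNEC tumors held the higher fibroblast signal, part of which was already present in the cultured 46LCNEC cells (82234 to 92731). The part of host tissue in these changes was not tested.

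**Figure D4:**
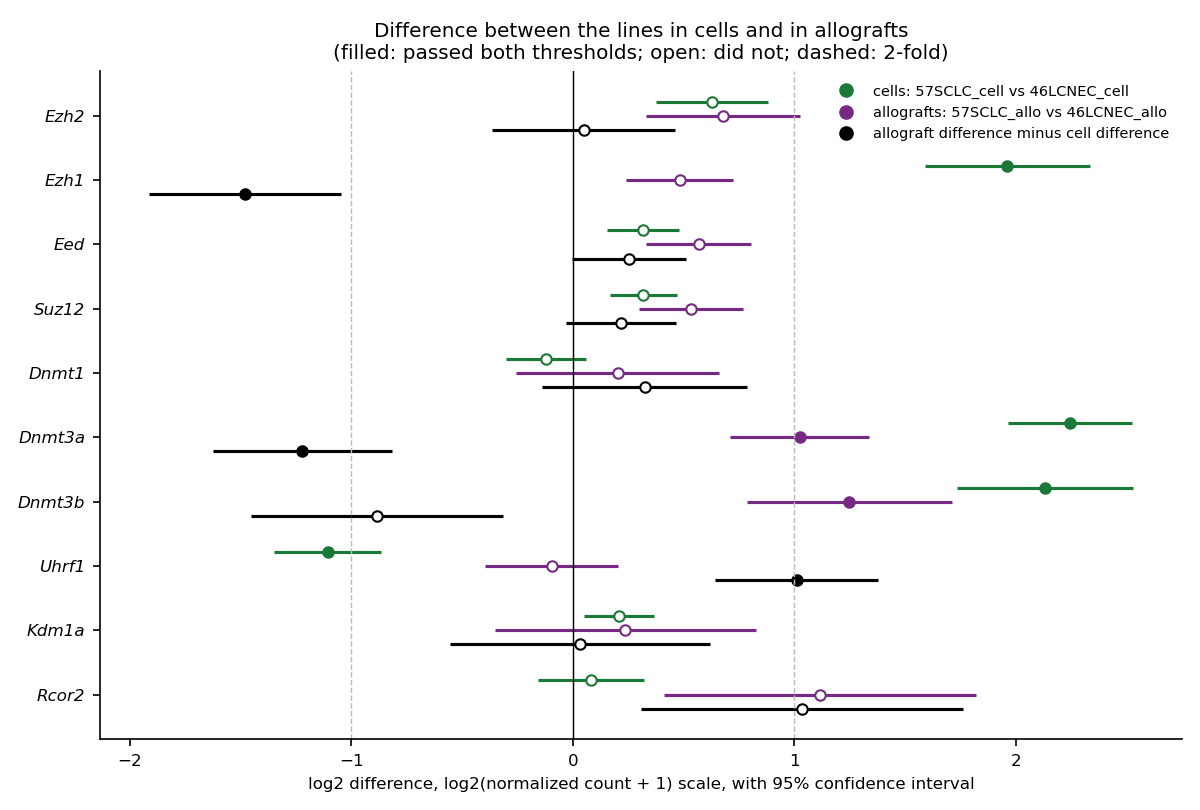
Log2 difference between 57SCLC and 46LCNEC for each gene in cells, in allografts, and the allograft difference minus the cell difference, with 95% confidence intervals (3 samples a group). Filled points passed both thresholds. Dnmt3a and Dnmt3b lie right of the 2-fold line in cells and in allografts, and Ezh1 does so only in cells (1.96 against 0.48).

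Genes of cell division rose in every comparison with Lung, and of the members only Uhrf1 and Rcor2 lay above their medians there. All 15 listed replication and mitosis genes were called up in the 4 comparisons, where 13.4%, 18.9%, 20.6% and 21.1% of all genes rose, with medians of 3.89 in 46LCNEC_allo, 4.04 in 57SCLC_allo, 4.60 in 46LCNEC_cell and 4.46 in 57SCLC_cell. Uhrf1 exceeded these medians by 0.78, 0.54, 1.41 and 0.44 and Rcor2 by 0.75, 1.72, 0.17 and 0.40 on the log2 scale. Dnmt1 lay below them, at -1.31, -1.25, -1.42 and -1.40, and Ezh2 at -1.85, -1.32, -2.17 and -1.40. These differences carry no test. From 46LCNEC_cell to 46LCNEC_allo 5 of the 15 fell (8.45% of all genes), with a median of -0.79, beside the fall of Uhrf1 by 1.33.

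The members fell into patterns when correlated over the 15 samples, a description in which the points share group and library. Pearson's r of log2 values was 0.98 for Ezh2 and Suz12, 0.98 for Dnmt1 and Uhrf1, and 0.94 for Dnmt3a and Dnmt3b, but 0.11 for Dnmt1 and Dnmt3b and -0.79 for Ezh1 and Uhrf1. Among 19626 genes, those most like each member were Mcm8, Wasf1 and Ncapd2 for Ezh2 (r of 0.99 each), Emid1, Kif13b and Amz1 for Ezh1 (0.98 each), Fancm, Lin9 and Mcm8 for Suz12 (0.99 each) and Depdc1a, Aspm and Stil for Dnmt1 (0.99 each). For Uhrf1 they were Mcm6, Dtl and the pseudogene Gm5648, with r of 0.997, 0.997 and 0.996, where reads of a pseudogene may come from its parent gene. For Dnmt3a they were Kcnh2, Pdik1l and Zfp113 (0.99 each), and for Dnmt3b Creg2, Cnnm2 and Fgf14 (0.99, 0.98 and 0.98). Rcor2 was most like Spats2, Ccdc34 and Cep55 (0.99 each), Kdm1a like Sfpq, Rai1 and Dgcr8 (0.98, 0.98 and 0.97), and Eed like the pseudogene Gm6623, B4galnt3 and Ppie (0.96, 0.95 and 0.95).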

How the data were processed

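Libraries of poly-A RNA from 15 samples, 3 in each of the 5 groups that the labels name, had been sequenced in pairs of 150-base reads. The authors aligned reads to GRCm39 with Rbowtie2, counted them with featureCounts on GENCODE release 27 and divided them by DESeq2 size factors, so the deposited values are a normalized signal. Bowtie2 does not split reads at introns, and the effect of this on the counts of genes with short exons was not tested. The strand setting and the handling of reads with several alignments are not given in the sources used here.

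The members, lists and tests were chosen with earlier results of these data known. Dividing a library's values by the worth of 1 read gave whole reads for 100% of them (tolerance 0.001 reads). Rows with no gene name (1347) were kept under their identifier. The test was limma 3.58.1 (trend) in R 4.3.3 on log2(normalized count + 1), two-sided, on genes that reached 10 normalized counts in 3 or more samples of the groups compared, with Benjamini-Hochberg adjustment over all genes tested. A call needed an adjusted p no higher than 0.01 together with a 2-fold change or more. A fold change on this scale understates that of low genes. P-values measure the spread between samples, which for the cell lines were cultures of 1 line. The fits were tested on simulated data in which every gene had the same dispersion and the changes lay well above the 2-fold threshold. That test says nothing of calls near 2-fold. Alternatives were edgeR 4.0.16 and DESeq2 1.42.0 on the recovered reads (edgeR called 2672 genes up and 3643 down in 46LCNEC_allo against Lung, where limma called 2425 and 3987), other scalings, filters, pseudocounts, thresholds, samples left out and a replicate block.

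Levels per kilobase used merged exons of GENCODE release 39 (GRCm39), which held 98.9% of the identifiers. Promoters came from RefSeq (GRCm38.p6). Genes named beyond the members were fixed paralogs and erasers (Uhrf2, Dnmt3l, Tet1 to Tet3, Rcor1, Rcor3, Kdm6a, Kdm6b, Kdm1b, Gfi1, Gfi1b and Insm1) and, from each list of partners, some of the up to 3 called genes per comparison with the largest change and a mean of at least 50 normalized counts in 1 group.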

Additional observations from a re-analysis of the deposited data

Results flagged for a closer look

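For 3 genes the difference between the lines was not the same in tumors as in culture, by a test of the change itself over 12 samples (limma, log2 scale). From cells to allografts the line difference (57SCLC minus 46LCNEC) changed by -1.48 for Ezh1, -1.22 for Dnmt3a and 1.01 for Uhrf1. For Ezh1 the mean in 46LCNEC went from 238 to 1327 normalized counts and in 57SCLC from 915 to 1851. Dnmt3a went from 2069 to 4605 in 46LCNEC and from 9727 to 9383 in 57SCLC. Uhrf1 went from 8321 to 3313 in 46LCNEC and from 3852 to 3087 in 57SCLC. The call for Uhrf1 lay at the 2-fold threshold. It was lost by DESeq2, with upper quartile scaling, and without any one of several samples named above. From cells to allografts 7 of 7 fibroblast markers rose in both lines, where 14.4% of all genes rose in each line. Of the immune markers tested 5 of 6 rose in 46LCNEC and 6 of 7 in 57SCLC. In the change of the line difference, 5 fibroblast markers were higher and 1 lower of 7, and 0 immune markers were higher and 1 lower of 7. Of all genes, 10.8% were higher and 6.78% lower in that test. The part of host tissue in the values of the 3 genes was not tested.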

How the results depend on the processing

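Of the alternatives tried for the members one by one, 1448 left the direction and the call as they were, 34 lost a call, 10 gained one and 18 turned the sign, in each case of a value close to 0. A test against a fold change of 2, which asks more than the thresholds used, gave 0 members down in 46LCNEC_allo, 5 up in 57SCLC_allo, 5 up in 46LCNEC_cell and 7 up in 57SCLC_cell against Lung, 0 down in 57SCLC_cell against 46LCNEC_cell, 0 up in 57SCLC_allo against 46LCNEC_allo, 1 up and 0 down from 46LCNEC_cell to 46LCNEC_allo, 0 up from 57SCLC_cell to 57SCLC_allo, and 0 up and 0 down for the change of the line difference. Against Lung, edgeR and TMM scaling gave 5 members up in 46LCNEC_allo in place of 4. In 57SCLC_allo against 46LCNEC_allo, DESeq2, 1 model of all 15 samples and an adjusted p of 0.05 gave 3 up in place of 2. The change of the line difference gave 0 up by DESeq2 and with upper quartile scaling, and 2 up at an adjusted p of 0.05. With 1 sample left out at a time, members down in 46LCNEC_cell against Lung ranged from 1 to 2, members up in 57SCLC_allo against 46LCNEC_allo from 0 to 3, members up from 57SCLC_cell to 57SCLC_allo from 0 to 1, and members up in the change of the line difference from 0 to 2. Signs turned for Eed in 46LCNEC_allo against Lung (0.065 by edgeR, 0.046 by DESeq2, 0.068 with TMM, 0.028 with upper quartile scaling, -0.089 to 0.082 with a sample left out) and for Dnmt3b there (0.0029 by edgeR, -0.22 to 0.036 with a sample left out). With a sample left out they also turned for Rcor2 from 46LCNEC_cell to 46LCNEC_allo (-0.44 to 0.19), Dnmt3a (-0.12 to 0.046) and Dnmt3b (-0.10 to 0.021) from 57SCLC_cell to 57SCLC_allo, and Ezh2 (-0.058 to 0.17) and Kdm1a (-0.14 to 0.32) in the change of the line difference. The causes were not tested. TMM scaling moved the median of all genes in 46LCNEC_cell against Lung by 0.13, from -0.23 to -0.097, and changed no direction of a called member. The letters A, B and C of the cell samples did not pair them, with correlations of deviations of 0.092, -0.084 and -0.0062, and a replicate block gave the same 3 up and 1 down. Over the longest transcript in place of merged exons, the ratio of Uhrf1 to Uhrf2 in 46LCNEC_allo was 0.899 in place of 1.74, and that of Ezh2 to Ezh1 in Lung was 0.134 in place of 0.115. Depth limited little, since the fewest reads on a member in a library were 77.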
